A study of Mus musculus with 36 samples.

Results

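The urea cycle genes examined were Cps1, Otc, Ass1, Asl and Arg1, which encode its 5 enzymes, Nags, which makes the activator of the first enzyme, and the carrier genes Slc25a15 and Slc25a13. They were chosen by name, as the probe sets whose platform annotation gives exactly 1 of these 8 symbols. This gave 11 of the 45037 probe sets tested and 8 of 18193 symbols. Otc had 3 probe sets, Slc25a15 had 2, and each of the other 6 genes had 1.

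Expression was measured on 36 Affymetrix mouse genome arrays, with tissue from liver, from white fat (WAT) and from brown fat (BAT) of 12 male mice of the ddY strain, an outbred stock, which were 5 weeks old on arrival. Water (DW, 7 mice, numbers 1 to 7) or amino acids mixed in the proportions of casein (CAAM, a 1.8% solution, 5 mice, numbers 2, 4, 5, 6 and 7) was given by gavage at 37.5 µL per g once a day, in 5 daily doses. All mice, in both groups, were killed 4 h after the last dose, and every mouse gave an array of all 3 tissues. The study left out 2 further CAAM mice because of abnormal liver morphology, the depot of the WAT is not given in the labels, and the same number in the water and CAAM groups does not mean the same animal.

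The urea cycle turns ammonia, which is released when amino acids are broken down, into urea for excretion. In the mitochondria of hepatocytes, Cps1 joins ammonia and bicarbonate into carbamoyl phosphate, and Otc passes it to ornithine to give citrulline. In the cytosol, Ass1 and Asl build arginine from citrulline and aspartate, and Arg1 cleaves arginine into urea and ornithine. Slc25a15 exchanges ornithine for citrulline across the inner mitochondrial membrane, and Slc25a13 (citrin) exports aspartate from the mitochondria. The full cycle is a function of the liver, whose urea cycle enzymes are known to follow protein intake, whereas Asl and Ass1 also serve arginine synthesis in many other cells.

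The deposited values are distribution free weighted (DFW) scores, whose level resembles log2 intensity. Within a tissue, the deviations of single arrays were scaled down, to a different extent for each probe set: the median standard deviation (SD) within groups was 1.07e-05 in liver, 1.43e-05 in WAT and 7.31e-06 in BAT. A difference in score can therefore not be read as a log2 ratio, and folds are left out. Differences between CAAM and water are given in score units with the standard error (SE) or divided by the SD within groups (the standardised difference), and the value of a mouse is given as its distance from the water mean in the same SD (the standardised score). The tissue labels were checked against their defining markers. Alb, which encodes the albumin that hepatocytes secrete, scored 15 in the livers of water mice against 6.98 in WAT and 6.54 in BAT. The white adipocyte hormone gene Lep scored highest in WAT (11.3) and Ucp1, the gene of heat production in brown adipocytes, in BAT (14.2). No 2 arrays were identical. Some fat arrays stood apart: markers of the epididymis and male tract summed to 44.6 to 78.5 over 7 genes in the WAT arrays, with the highest sums in water mice 1 and 2 and CAAM mouse 6 (CAAM mouse 7, at 51.9, was set apart with them in earlier results of these data by other genes, although water mouse 3, at 52.2, was not), and markers of skeletal muscle summed to 52.3 to 92.7 over 8 genes in the BAT arrays, with the highest in water mice 1, 3 and 7 and CAAM mouse 2. Results in fat are therefore also given without such arrays.

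In the water mice every urea cycle probe set scored higher in liver than in either fat. For Arg1 the mean was 13.8 in liver, against 6.16 in WAT and 6.17 in BAT. Cps1 scored 13.9 in liver, 6.60 in WAT and 6.30 in BAT. The Otc probe set 1420525_a_at scored 13.4 in liver, 6.02 in WAT and 6.10 in BAT. These 3 genes of the cycle lay below the array median in both fats, and their liver scores exceeded the WAT scores by 7.67, 7.32 and 7.41, which rank 35, 49 and 44 from the highest of 45037 differences. All 11 probe sets lay above the array median in liver (6.81 on every array), whereas in WAT and BAT 2 of 11 did, Asl and the Slc25a15 probe set 1420967_at (array medians of 6.91 to 6.92 in WAT and 6.78 in BAT).

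Asl, the lyase that releases arginine from argininosuccinate, kept a score above the array median in fat: 11.8 in liver, 8.18 in WAT and 7.50 in BAT. Slc25a15 scored 11.9 in liver, 8.38 in WAT and 8.75 in BAT by probe set 1420967_at, and 8.40, 6.63 and 6.38 by probe set 1420966_at, so that the carrier was above the array median in fat by 1 probe set and below it by the other. Nags, whose product N-acetylglutamate is required for Cps1 activity, scored 9.43 in liver, 6.33 in WAT and 6.41 in BAT. Slc25a13 scored 11.5 in liver, 6.68 in WAT and 6.66 in BAT. The other Otc probe sets, 1425540_at and 1436615_a_at, scored 8.03 and 10.6 in liver, between 5.77 and 6.09 in both fats. Ass1, the enzyme that joins citrulline and aspartate, had the smallest liver excess of the 11, with 7.44 in liver, 6.57 in WAT and 6.41 in BAT. Another probe set, 1416239_at, is annotated to Ass1 together with Gm5424, a transcribed pseudogene on chromosome 10, and was therefore not counted as a member. It scored 12.4 in liver, 6.44 in WAT and 6.66 in BAT, and how much of it comes from either gene is uncertain.

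**Figure D1:**
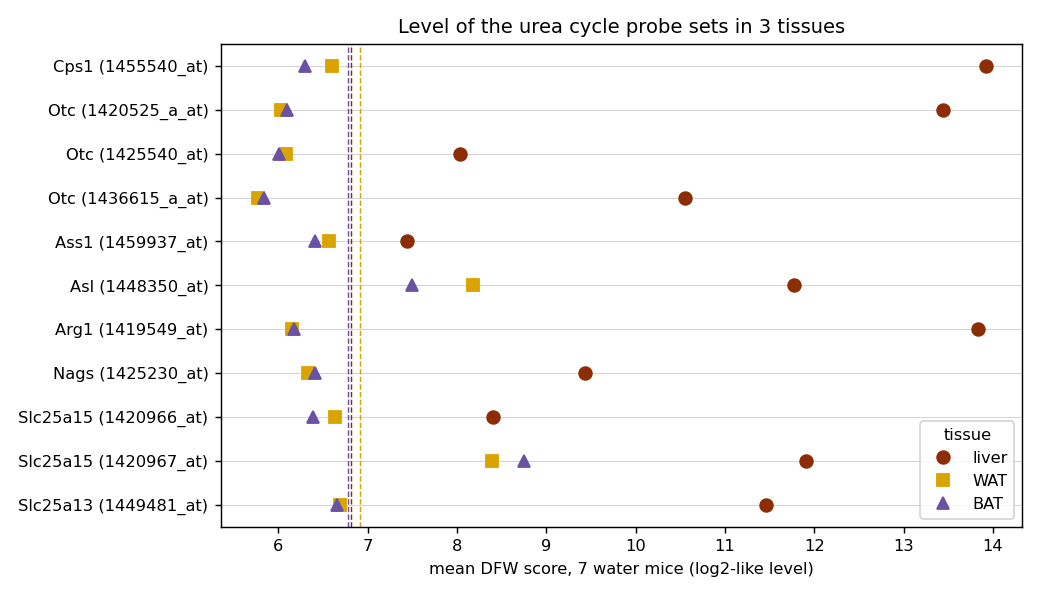
Mean DFW score of the 7 water mice for each urea cycle probe set (vertical axis) in liver (circles), WAT (squares) and BAT (triangles). Dashed lines mark the lowest array median of each tissue, and SDs between mice are smaller than the symbols. The liver score lies to the right of both fat scores for all 11 probe sets, and only Asl and Slc25a15 (1420967_at) lie above the median in fat.

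Between the fats the differences were smaller. BAT minus WAT was −0.68 for Asl, +0.36 and −0.25 for the Slc25a15 probe sets and −0.30 for Cps1, and for the other 7 probe sets it lay between −0.16 and +0.08. All these tissue differences exceeded the spread between mice, whose SD for the members ran from 2.11e-06 to 0.00234 in liver, from 1.04e-06 to 0.00200 in WAT and from 5.94e-07 to 6.74e-06 in BAT. By limma on the differences within water mice 11 of 11 probe sets passed an adjusted p of 0.05 for liver against WAT, liver against BAT and BAT against WAT, but so did 99.8%, 99.9% and 99.7% of all probe sets, and nothing is read from these counts. Whether the tissues were quantified together is not given in the sources used here, and the levels are given as a description. In whole tissue, fewer cells of a type and less RNA per cell cannot be told apart. In the CAAM mice liver minus WAT was again 7.67 for Arg1, 7.32 for Cps1 and 7.41 for Otc.

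Whether a small daily amount of the casein-like mixture moved these genes was asked within each tissue. In the liver, the study's method, rank products, called 2 of the 11 probe sets higher in CAAM mice, Ass1 (1459937_at) and 1 of the 2 Slc25a15 probe sets (1420966_at), and none lower. Over all probe sets it called 2.66%, of which 1.61% were higher and 1.18% lower (58 probe sets in both directions). limma called none of the 11 and none of 45037 (6.77% had an unadjusted p under 0.05, against 1 of 11 members). The rank products calls were concentrated in the probe sets with the largest spread: 98.6% of the 1200 calls lay among the 4504 probe sets with the highest SD, of which 26.3% were called. Of the 11 member probe sets 5 were among these 4504 in liver, both called ones included. On simulated scores with these spreads, rank products also called unchanged probe sets of large spread, so that its stated share of false positives is not held on these values.

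Ass1 is located on chromosome 2 (31470270 to 31520670, GRCm38.p6), and Slc25a15 on chromosome 8 (22375550 to 22398621). In the same build the other members are protein-coding genes on chromosomes 1 (Cps1, 67122426 to 67231267), 5 (Asl, 130011258 to 130024381), 6 (Slc25a13, 6041218 to 6217304), 10 (Arg1, 24915207 to 24927470), 11 (Nags, 102145513 to 102149528) and X (Otc, 10252230 to 10321024). Their promoter windows are shown because rank products called both genes, that of Nags because its score moved with that of Slc25a15 between mice, and that of Otc as the window of the members with the fewest CpG dinucleotides. Each window holds 250 bases before and 50 after a transcription start and was taken from RefSeq on GRCm38.p6, in the direction of the gene. Capitals mark GGGCGG on either strand, the box bound by Sp factors.
Ass1 promoter, chr2:31470020-31470319, plus strand: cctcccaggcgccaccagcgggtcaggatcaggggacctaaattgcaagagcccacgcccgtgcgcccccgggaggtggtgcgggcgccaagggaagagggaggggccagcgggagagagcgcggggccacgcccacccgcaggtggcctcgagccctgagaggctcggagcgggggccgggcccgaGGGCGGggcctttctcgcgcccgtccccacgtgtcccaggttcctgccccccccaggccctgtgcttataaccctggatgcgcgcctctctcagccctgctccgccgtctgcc
Slc25a15 first start promoter, chr8:22398572-22398871, minus strand: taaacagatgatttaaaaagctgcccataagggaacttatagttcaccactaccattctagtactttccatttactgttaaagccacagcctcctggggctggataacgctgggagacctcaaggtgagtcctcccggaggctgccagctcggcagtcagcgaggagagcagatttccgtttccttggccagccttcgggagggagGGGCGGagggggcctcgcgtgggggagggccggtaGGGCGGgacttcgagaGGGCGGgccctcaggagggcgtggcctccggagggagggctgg
Slc25a15 second start promoter, chr8:22398228-22398527, minus strand: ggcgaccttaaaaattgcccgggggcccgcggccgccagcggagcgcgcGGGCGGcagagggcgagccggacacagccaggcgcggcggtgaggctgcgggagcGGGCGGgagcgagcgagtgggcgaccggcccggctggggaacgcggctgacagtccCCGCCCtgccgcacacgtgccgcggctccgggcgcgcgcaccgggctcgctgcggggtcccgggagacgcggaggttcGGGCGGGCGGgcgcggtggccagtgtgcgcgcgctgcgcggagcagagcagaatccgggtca
Nags promoter, chr11:102145263-102145562, plus strand: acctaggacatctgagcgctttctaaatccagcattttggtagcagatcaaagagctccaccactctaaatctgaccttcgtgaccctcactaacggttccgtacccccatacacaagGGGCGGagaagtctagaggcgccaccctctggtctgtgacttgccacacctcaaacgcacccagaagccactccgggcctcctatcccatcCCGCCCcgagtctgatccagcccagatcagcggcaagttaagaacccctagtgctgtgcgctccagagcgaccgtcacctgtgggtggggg
Otc promoter, chrX:10252055-10252354, plus strand: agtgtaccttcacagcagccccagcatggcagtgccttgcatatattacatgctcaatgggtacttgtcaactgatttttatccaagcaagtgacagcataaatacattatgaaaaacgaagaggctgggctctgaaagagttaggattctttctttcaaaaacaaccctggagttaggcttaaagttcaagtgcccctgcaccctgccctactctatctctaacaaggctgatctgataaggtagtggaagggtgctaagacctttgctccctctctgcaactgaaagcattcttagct
RefSeq windows were matched for 5 of the 8 members, Ass1, Slc25a13, Slc25a15, Nags and Otc. Of all 32851 windows in the table, 35.7% held GGGCGG. It occurred 1 time in the window of Ass1, 3 and 5 times in those of Slc25a15 and 2 times in that of Nags. The GC content was 74% for Ass1, 60.7% and 79% for Slc25a15, 57.7% for Nags and 65% for Slc25a13, all above the median of 52.7%, and 44.3% for Otc, whose window held 1 CpG against a median of 7. Also searched on both strands were TATAAA (13.6% of all windows), CCAAT (37.4%), TTGCNNAA (10.8%), CAAAGTNCA (1.41%), the HNF1 palindrome (0.00913%) and TGACGTCA (1.79%). Of these, CCAAT was found in the window of Slc25a13 and none in the windows printed. These letters are a description, and a match is not a binding site.

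In the liver of the CAAM mice the standardised scores of Ass1 were 1.13 in mouse 2, 2.60 in mouse 4, −0.06 in mouse 5, 3.18 in mouse 6 and 1.44 in mouse 7. The water mice ranged from −0.73 to 1.53 with a median of −0.15. All 5 CAAM values exceeded the median water value, 2 of them above the highest water mouse, and the groups overlapped. The mean score was 0.000452 ± 0.000155 (SE) higher in CAAM mice (n = 5 against 7), a standardised difference of 1.66, with a limma adjusted p of 0.682 and an unadjusted exact permutation p of 0.0240 (two-sided, over 792 divisions of the mice, of which the smallest p is 0.00126). In the liver 6.85% of all probe sets had an exact p under 0.05, so that 1 such member of 11 is near the background. Without CAAM mouse 4 or 6 the exact p was 0.0515 or 0.0576. The probe set shared with Gm5424 had a standardised difference of 0.17 (exact permutation p = 0.782).

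For Slc25a15 (1420966_at) the standardised scores in liver were 1.52 in CAAM mouse 2, 0.85 in mouse 4, 2.33 in mouse 5, 1.01 in mouse 6 and −0.57 in mouse 7. The water mice ranged from −1.58 to 1.19 with a median of 0.19. Of the CAAM values 4 of 5 exceeded the median water value and mouse 7 lay within the lower water values, so the groups overlapped. The difference was 0.000855 ± 0.000472 (SE) in score units and 1.03 when standardised (limma adjusted p = 0.773, exact permutation p = 0.114). The other probe set of the gene, 1420967_at, gave a similar order of mice, with 2.23 in CAAM mouse 5 and −1.32 in CAAM mouse 7, and a standardised difference of 0.68 that no test called. By rank products the call of Ass1 was lost without CAAM mouse 4, that of Slc25a15 without CAAM mouse 5, that of Ass1 again without CAAM mouse 7, and both without CAAM mouse 2 or 6. After quantile normalization neither was called.

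The other members of the cycle showed no call in the liver. The standardised differences were −0.44 for Cps1, −0.36, −0.24 and 0.05 for the Otc probe sets, 0.21 for Asl, 0.33 for Arg1, 0.69 for Nags and 0.10 for Slc25a13, and their exact permutation p ran from 0.266 to 0.937. Cps1, the enzyme that admits ammonia to the cycle, ranged from −1.52 to 1.24 in CAAM mice and from −0.93 to 1.25 in water mice, and the groups overlapped. Its difference was −3.58e-06 ± 4.65e-06 (SE). Nags ranged from −0.89 to 2.13 in CAAM mice and from −0.93 to 1.27 in water mice, and 3 of its 5 CAAM values exceeded the median water value. Over the 11 probe sets 8 differences were positive and the median was 0.21, beside −0.09 over all probe sets. When each array was centred on its median, 4 members (Cps1, Otc by 1420525_a_at, Arg1 and Slc25a13) had an exact p under 0.05 in the negative direction. The array medians of the CAAM mice lay 0.000108 above those of the water mice, a shift larger than the SD within groups of these 4 probe sets. By limma after centring, the unadjusted p was under 0.05 in 5 of 11 members and in 32866 of all 45037 probe sets. Nothing about the members is therefore read from the count after centring.

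**Figure D2:**
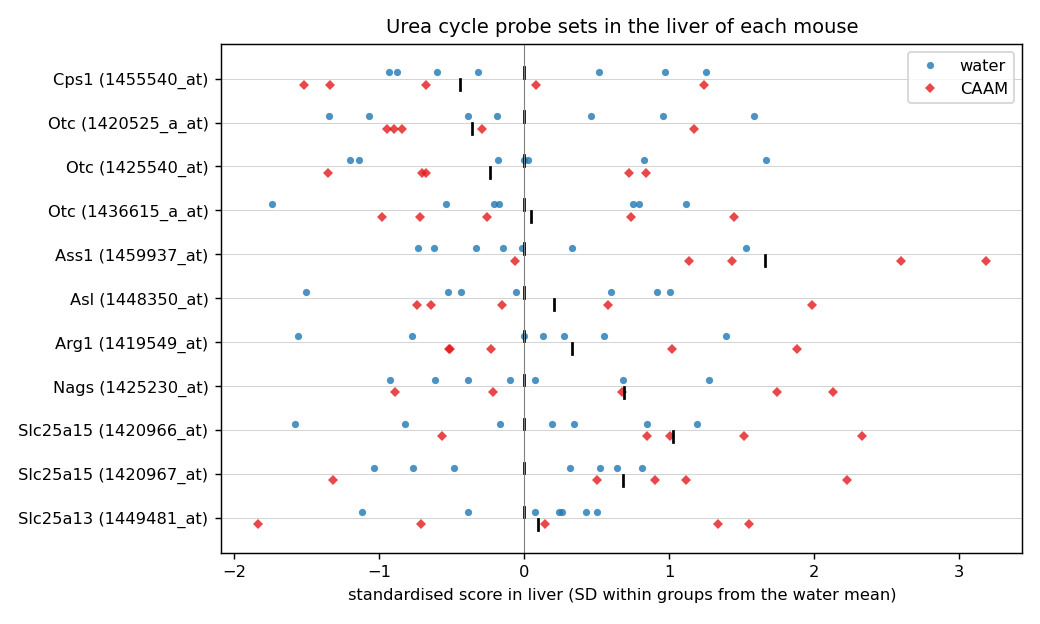
Standardised score in liver (horizontal axis, distance from the water mean in SD within groups) of each water mouse (circles) and each CAAM mouse (diamonds) for the 11 probe sets. Black bars are group means. The 5 Ass1 values of CAAM mice run from −0.06 to 3.18 and overlap those of water mice, and the CAAM and water values of Cps1 and Otc are interleaved.

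In WAT no urea cycle probe set was called by rank products or limma, beside 2.63% of all probe sets by rank products and 0 by limma (unadjusted p under 0.05 in 0 of 11 members and 3.96% of all). The largest differences were those of Otc (1436615_a_at), 1.11 in SD units (exact permutation p = 0.0972), and Slc25a15 (1420966_at), 1.02 (exact permutation p = 0.107). After quantile normalization they were 0.03 and 0.0013. After centring both were 0.16, as were Cps1, Arg1 and Nags. CAAM minus water was −0.000316 for the array medians in WAT, a shift larger than the SD within groups of these probe sets, so the centred values carry it. The Otc (1436615_a_at) and Slc25a15 (1420966_at) probe sets lay below the array median in WAT. No member had an exact p under 0.05, beside 4.33% of all probe sets. Of the 11 differences 8 were positive, with a median of 0.32 beside 0.01 over all probe sets.

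In WAT, Asl and Slc25a13 were highest in 2 arrays with male tract markers. For Asl the highest standardised score was 2.36 in CAAM mouse 6, followed by 1.28 in water mouse 1, and for Slc25a13 the order was the same, with 2.51 and 1.47. These mice also had the highest male tract list scores (the mean standardised score of 7 markers), 1.73 in CAAM mouse 6 and 1.11 in water mouse 1. All other mice had Asl scores of 0.66 or lower and Slc25a13 scores of 0.85 or lower. For Slc25a13 the next highest was CAAM mouse 5 (0.85), whose male tract list score was the lowest of all (−0.62), above water mouse 2 (0.53), whose list score was 0.62. The part of male tract tissue in the WAT scores of Asl and Slc25a13 was not tested. Without water mice 1 and 2 and CAAM mice 6 and 7 the standardised difference of Asl went from 0.32 to −0.09, that of Slc25a13 from 0.50 to 0.57, and that of Otc (1436615_a_at) from 1.11 to 2.78 (exact permutation p = 0.0179, the smallest possible with 3 against 5 mice). Without CAAM mouse 6 alone they were −0.25, −0.01 and 2.11 (exact permutation p = 0.00303 for Otc, again the smallest possible). In both subsets the groups of this Otc probe set did not overlap. The male tract arrays were chosen with earlier results known. The share of all probe sets reaching these p is not given, so nothing is read from them.

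In BAT, rank products called none of the 11 probe sets either, beside 3.17% of all, and limma called none of 45037. Slc25a13, the aspartate carrier, had the largest difference, −8.37e-06 ± 3.54e-06 (SE), or −1.36 in SD units (limma unadjusted p = 0.0382, adjusted p = 0.756, exact permutation p = 0.0530). Its CAAM scores were −1.61 in mouse 2, −1.78 in mouse 4, −1.37 in mouse 5, 0.11 in mouse 6 and −2.14 in mouse 7, and the water mice ranged from −1.65 to 1.30. None of the 5 CAAM mice lay above the water median of 0.17, yet 3 of them lay within the range of the water mice. Asl had a difference of the other sign in the scores as deposited, 1.23 (exact permutation p = 0.0631), with CAAM scores of 1.60, 1.79, 2.05, −0.49 and 1.21 in mice 2, 4, 5, 6 and 7 and water scores from −1.75 to 1.48. Unadjusted p by limma was under 0.05 in 1 of 11 members and 6.41% of all probe sets, and the exact p in 0 of 11 members and 6.26% of all. Without water mice 1, 3 and 7 and CAAM mouse 2, whose muscle markers were highest, the difference was −0.94 for Slc25a13 and 0.69 for Asl. The direction of Slc25a13 depends on the scaling: after quantile normalization it was 0.63 for Slc25a13 and 0.64 for Asl, so that the genes no longer differed in direction. After centring they were 0.88 and 0.92, and all 11 probe sets lay in this range. CAAM minus water was −0.000373 for the array medians in BAT, a shift larger than the SD within groups of every member. The centred values carry this shared shift and are not read as differences of single genes. Muscle list scores ran from −0.85 to 1.65 in water mice and from −0.99 to 1.28 in CAAM mice, and the part of muscle in these differences was not tested.

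**Figure D3:**
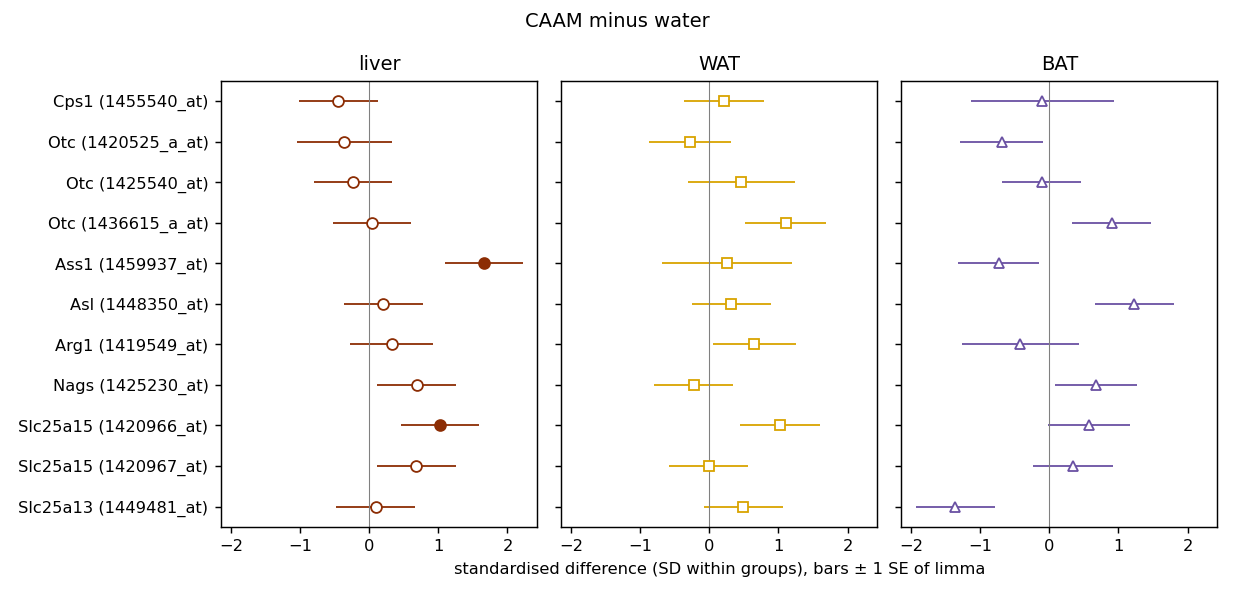
Standardised difference between CAAM and water mice (horizontal axis, SD within groups; bars are 1 SE by limma on either side) for the 11 probe sets in liver, WAT and BAT. Filled symbols were called by rank products (Ass1 and 1 Slc25a15 probe set, both in liver) and open symbols were not.

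None of the member differences was shown to depend on the tissue. For the difference of differences between liver and WAT, liver and BAT, and BAT and WAT limma called 0 of 11 members and 0 of 45037 probe sets (unadjusted p under 0.05 in 5.38%, 6.19% and 5.57% of all). Ass1 was the member with an unadjusted p under 0.05, 0.0150 for liver against WAT (adjusted p = 0.860) and 0.0140 for liver against BAT (adjusted p = 0.735). With all mice, no member had groups that did not overlap in any tissue, beside 0.442% of all probe sets in liver, 0.222% in WAT and 0.329% in BAT.

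The members were not highest in the same livers. CAAM mouse 5 had the highest liver scores of Nags (2.13) and of both Slc25a15 probe sets (2.33 and 2.23), mitochondrial proteins that act beside each other at the entry of the cycle. CAAM mouse 6 had the highest scores of the cytosolic enzymes Ass1 (3.18), Asl (1.99) and Arg1 (1.88), and also of Slc25a13 (1.55). Cps1 and the Otc probe set 1420525_a_at, the mitochondrial steps, were highest in water mouse 1 (1.25 and 1.58) and CAAM mouse 2 (1.24 and 1.17). The order of mice depends on the probe set. The brighter probe set shared by Ass1 and Gm5424 was highest in CAAM mouse 2 (2.15), with 0.92 in CAAM mouse 6. The Otc probe sets 1425540_at and 1436615_a_at were highest in water mouse 5 (1.67) and CAAM mouse 4 (1.45).

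Over the 12 livers 28 pairs of members were correlated, each gene by its probe set with the highest level, and 3 had an adjusted permutation p under 0.05 by Pearson's r. Nags and Slc25a15 had r = 0.77 (permutation p = 0.00275, adjusted 0.0461) and Spearman's rho = 0.80 (permutation p = 0.00256, adjusted 0.0717). Cps1 and Otc had r = 0.76 (permutation p = 0.00494, adjusted 0.0461) and rho = 0.71 (permutation p = 0.0119, adjusted 0.111). Asl and Arg1 had r = 0.76 (permutation p = 0.00440, adjusted 0.0461) and rho = 0.73 (permutation p = 0.00946, adjusted 0.111). By Spearman's rho none of the 28 passed after adjustment. Without the 2 mice farthest from the median of the first gene r was 0.57, 0.53 and 0.41. Leaving out extreme mice also narrows the range of that gene, so the fall cannot show whether a relation rests on them. Within the 7 water mice r was 0.78, 0.74 and 0.79. The remaining pairs ran from −0.49 to 0.51, and 17 of 28 were positive with a median r of 0.15. Ass1, the member with the largest CAAM difference, had r from −0.36 (Otc) to 0.36 (Asl) with the others. It entered by 1459937_at (7.44 in liver). The brighter probe set shared with Gm5424 (1416239_at, 12.4) was left out of these correlations, and its order of mice differed. Whether Ass1 varied with the other members is therefore not read from these r. These are correlations of scores of the same arrays, which share array-wide shifts: r with the array median was 0.68 for Slc25a13, 0.48 for Ass1 and −0.44 for Cps1 and for Otc.

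**Figure D4:**
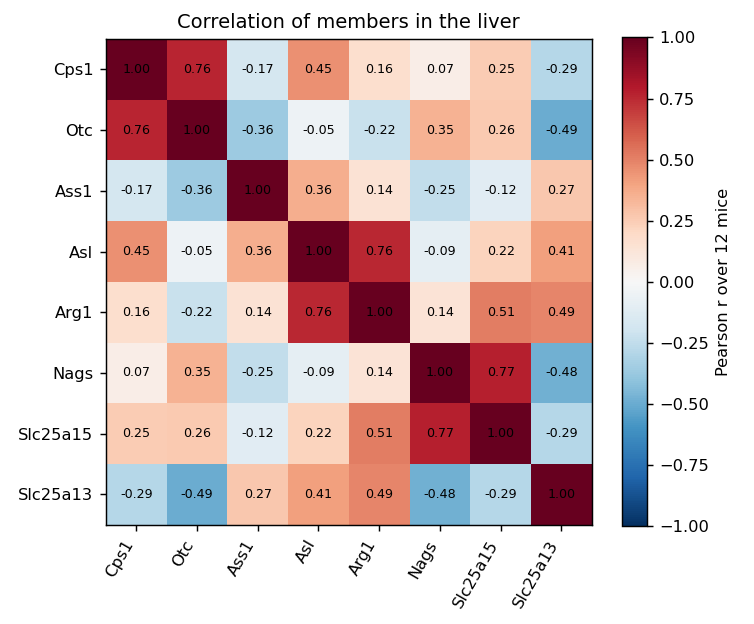
Pearson's r over 12 mice between members in the liver (each gene by its probe set with the highest level). The pairs Nags with Slc25a15 (0.77), Cps1 with Otc (0.76) and Asl with Arg1 (0.76) have the highest r, and Otc with Slc25a13 has the lowest (−0.49).

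Among 11790 other genes above the median level, those whose liver scores were most like the members' were named by Pearson's r over the 12 mice, which with so many genes is a description. For Cps1 they were Col5a3 (r = 0.88) and Mccc1 (0.87), and for Otc Srrm2 (0.90) and Zkscan8 (0.89). For Ass1 they were Yod1 (0.95) and Ip6k2 (0.91), for Asl Galnt11 and Cdc40 (both 0.88), and for Arg1 Trappc11 (0.89) and Srfbp1 (0.88). For Nags they were Tubb4b (0.93) and Capza2 (0.90), for Slc25a15 Tmem19 (0.95) and Myl12b (0.89), and for Slc25a13 Acadm (0.89), the medium-chain acyl-CoA dehydrogenase of fatty acid oxidation, and Acot11 (0.88). No member was among the nearest by construction, since members were left out of the search.

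Genes around the cycle were taken from 3 lists, each gene by its probe set with the highest level, and limma called none of them in any tissue (unadjusted p under 0.05 in 5 of 47 in liver). Of the 4504 probe sets with the highest SD in liver, rank products called 16.0% higher. How many genes of the lists are among these is not given, so no excess is read from their counts of calls. Of 17 measured genes of arginine and ornithine use (19 listed), rank products called 3 higher in the liver of CAAM mice and none lower, beside 1.61% and 1.18% of all probe sets. The 3 were Arg2, the mitochondrial arginase (standardised difference 1.39, exact permutation p = 0.00631), Gatm, which starts creatine synthesis from arginine (0.97, exact permutation p = 0.125), and Slc7a2, a carrier of cationic amino acids (0.43, exact permutation p = 0.494). Arg2 lay below the array median, with CAAM scores from 0.20 to 3.98 and water scores from −0.49 to 0.61. Sat1, which acetylates spermidine and spermine, had a difference of 1.25 and was not called, and it was −0.09 after quantile normalization and −0.32 after centring. The list had 9 of 17 positive differences and a median of 0.03. Genes of the 3 lists were named for a call or a large difference, and 6.85% of all probe sets had an exact p under 0.05 in liver.

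Of 18 measured genes of ammonia, glutamate and aspartate supply (20 listed), 1 was called higher and none lower, Got1, the cytosolic aspartate aminotransferase (1.03, exact permutation p = 0.110). Car5a, the mitochondrial carbonic anhydrase that provides bicarbonate for Cps1, had the largest difference of the 3 lists, −2.24, and was not called by rank products or limma (adjusted p = 0.636). Its standardised scores were −1.19 in CAAM mouse 2, −0.74 in mouse 4, −4.19 in mouse 5, −1.68 in mouse 6 and −3.41 in mouse 7, while the water mice ranged from −0.57 to 0.83. The groups did not overlap (exact permutation p = 0.00126, the smallest possible), which held for 0.442% of all probe sets. After centring the difference was −1.60 and after quantile normalization it was 0.80, so its direction depends on the scaling. Slc25a12, the aspartate carrier paralogous to Slc25a13, had 1.54 (exact permutation p = 0.0240), and 0.47 after quantile normalization. The list had 10 of 18 positive differences and a median of 0.03.

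Of 12 measured regulators of urea cycle genes (13 listed), 2 were called higher and 2 lower. The forkhead factors of the liver differed in direction: Foxa2 had −1.73 (exact permutation p = 0.0152), Foxa1 −0.98 (exact permutation p = 0.124), both called lower, and Foxa3 1.16 (exact permutation p = 0.0505), called higher. Foxa2 scored −0.02, −1.43, −1.44, −3.30 and −2.49 in CAAM mice 2, 4, 5, 6 and 7, and from −0.92 to 1.27 in water mice. Its difference was −1.56 after quantile normalization and −1.74 after centring, whereas that of Foxa3 was −0.18 after quantile normalization. Cebpb, a factor of the acute phase and of gluconeogenesis, was called higher with 1.06 (exact permutation p = 0.102). Creb1 had 1.18 and was not called, and it was −0.87 after quantile normalization and −1.28 after centring.

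Markers of other liver cell types differed in the same comparison. All 10 macrophage markers had positive differences in the liver, and limma called 0. Rank products called 8 of them higher, beside 1.61% of all probe sets and 16.0% of the 4504 with the highest SD. How many of these markers are among those 4504 is not given. The macrophage list score ran from −0.98 to 0.92 in water mice and was 0.21, 1.04, 3.07, 0.65 and 1.39 in CAAM mice 2, 4, 5, 6 and 7 (summed scores of 88.0 to 88.1 in water mice and 88.1 to 88.2 in CAAM mice). CAAM mouse 5, with the highest macrophage score, also had the highest Nags and Slc25a15 scores and the lowest Ass1 and Car5a scores of the CAAM mice. Arg2 (3.98), Gatm (2.54) and Sat1 (2.95) were highest in CAAM mouse 5 as well. All 6 endothelial markers had positive differences, with a median of 1.05 beside −0.09 over all probe sets, and rank products called none of them. Their list score ran from −1.01 to 0.95 in water mice and from 0.62 to 1.72 in CAAM mice, again highest in CAAM mouse 5. The summed scores were 48.3751 to 48.3755 in water mice and 48.3755 to 48.3757 in CAAM mice. CAAM minus water was 0.000108 for the array medians in liver, and marker values after centring or quantile normalization are not given here. Of 9 measured hepatocyte markers, 8 had positive differences and 2 were called higher, and their list score ran from −0.40 to 0.79 in water mice and from −0.08 to 0.87 in CAAM mice. The part of the cell make-up in the differences of Ass1, Slc25a15, Arg2, Gatm and the other genes named in liver was not tested.

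**Figure D5:**
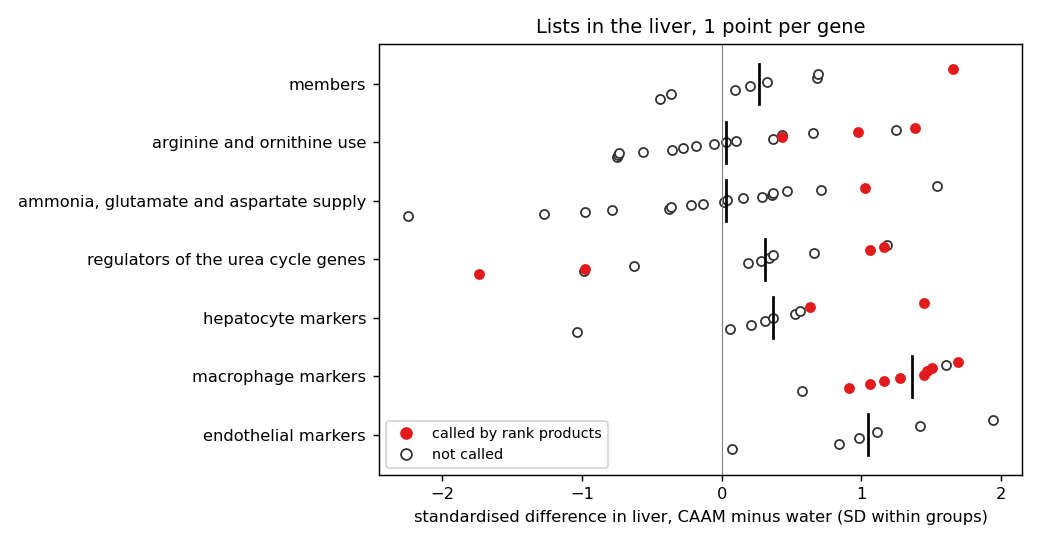
Standardised difference between CAAM and water mice in the liver (horizontal axis, SD within groups), 1 point per gene, for the members and 6 lists. Filled points were called by rank products, open points were not, and black bars are medians. The members (median 0.27 over 8 genes, each by its probe set with the highest level) spread around 0 as the 3 pathway lists do, while all 10 macrophage markers lie above 0.

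In BAT rank products called 8 of the 47 measured genes of the 3 lists and in WAT 4 of 47, beside 8 of 47 in liver. It called 0.826% of all probe sets higher and 1.95% lower in WAT, and 1.19% and 2.05% in BAT (2.63% and 3.17% in either direction). Of all calls, 96.6% in WAT and 97.4% in BAT lay among the 4504 probe sets with the highest SD of the tissue. How many listed genes are among these is not given, so no excess is read. In WAT, Arg2 was called in both directions, Gamt, Gpt and Slc38a5 lower and no regulator, with standardised differences of 0.15, 0.16, −0.45 and −0.71. For Gamt the direction of the call and the sign of the mean difference (0.16) disagreed, so no direction is read from it. Slc25a22, a mitochondrial glutamate carrier, had the largest WAT difference of the 3 lists, 1.54 (exact permutation p = 0.0290), and was not called. In WAT 4.33% of all probe sets had an exact p under 0.05. The other genes with the largest WAT differences in their lists, Slc7a2 (−0.78), Srm (0.87), Foxa2 (0.93) and Foxa3 (−0.91), were not called either. In BAT, Gatm (0.15), Car5b (1.37), Cebpb (0.91) and Ppargc1a (0.32) were called higher and Nos3 (−0.62), Got1 (−0.74), Got2 (−0.08) and Slc25a12 (−0.41) lower. Car5b, a mitochondrial carbonic anhydrase, was higher than the median water mouse in all 5 CAAM mice (exact permutation p = 0.0290). Slc25a2, the carrier of ornithine related to Slc25a15, had 1.47 in BAT (exact permutation p = 0.0341), and Oat, which converts ornithine onward, had 1.32 (exact permutation p = 0.0492), neither of them called. Both were named as the largest of their list, and 6.26% of all probe sets had an exact p under 0.05 in BAT. Values of the listed genes in fat after centring or quantile normalization are not given here. Hnf4a (−1.03), Foxo1 (1.20) and Mdh2 (−0.77) were not called in BAT. All 8 muscle markers were called lower in BAT of CAAM mice, and their part in these calls was not tested.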

How the data were processed

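RNA of liver, WAT and BAT was hybridised to 1-colour arrays. Per the labels and the methods, the authors quantified the array files by the distribution free weighted method (R 2.7.2 in the submitters' processing notes) and deposited a score for each probe set of each array, with control probe sets that were left out here (64 of 45101). The scores were used as deposited. Precision is limited by the number of arrays. Tests meant for log2 values were kept, although the scores are not plain log2 values.

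Groups came from the sample titles. Within each tissue, CAAM mice were set against water mice by rank products, the authors' method (own code in python 3.11.15 with numpy 2.4.6, 35 pairs of arrays, 100 permutations, called where the estimated percentage of false positives was below 0.05 as a share, per direction), by limma 3.58.1 in R 4.3.3 (two-sided, Benjamini-Hochberg over 45037 probe sets) and, for single probe sets, by exact two-sided permutation. Correlations used 100000 permutations. Tissues were compared by limma on differences within mice. Whether arrays of another mixture entered the quantification is not given in the sources used here; such arrays were not analysed here. Of all probe sets, 34945 had 1 platform symbol, 932 several and 9160 none. The methods were run on simulated scores that varied like the liver arrays, where limma made few false calls and rank products called many unchanged probe sets of large spread.

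Named were all member probe sets, the called genes and the 2 with the largest difference in each of 3 pathway lists and tissue, tissue and cell type markers, and the 2 genes most correlated with each member. The members and lists were chosen with earlier results of these data known. Marker lists of 8 kinds were summarised as medians of standardised differences over measured genes: in liver 0.37 for hepatocytes, −0.81 for white and −0.42 for brown adipocytes, 1.36 for macrophages, 1.05 for endothelium, −1.01 for skeletal muscle, −0.26 for the male tract and −0.34 for erythroid cells and neutrophils. In WAT, in the same order, they were 0.68, −0.46, 0.02, −0.30, −0.44, 0.46, 0.53 and 0.65, and in BAT −0.15, 0.46, −0.27, −0.31, −0.36, −0.47, −0.27 and 0.32. Alternatives were quantile normalization, centring of array medians, the linear scale, a filter on dim probe sets, differences divided by the SD, array weights, trend and robust priors, all tissues in 1 fit, the replicate block, leaving out each mouse, and runs without the fat arrays that stood apart. Figures were drawn with matplotlib 3.10.9.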

Additional observations from a re-analysis of the deposited data

Results flagged for a closer look

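In 7 of 66 groups of a probe set, tissue and treatment the highest mouse stood apart from the others by Dixon's ratio, its gap to the nearest mouse divided by the range of the group. For independent, normally distributed values chance gives this in about 1 in 20 groups. The groups here share the same mice, and the share over all probe sets is not given, so no excess is read from the count. In WAT the flagged groups were the Otc probe set 1420525_a_at in CAAM mouse 4 (ratio 0.799), Ass1 in CAAM mouse 5 (0.736) and Slc25a15 (1420967_at) in CAAM mouse 5 (0.734). In BAT they were Cps1 in CAAM mouse 5 (0.716), the Otc probe set 1425540_at in CAAM mouse 4 (0.737), Nags in water mouse 2 (0.672) and Slc25a15 (1420966_at) in CAAM mouse 2 (0.774). No liver group of a member stood out in this way. Of these probe sets, Slc25a15 (1420967_at) was above the array median in its tissue and the others were below it.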

How the results depend on the processing

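The number of member probe sets called by rank products in the liver was 2. It was 1 after quantile normalization (Otc by 1436615_a_at, neither of the 2), 0 without dim probe sets, 4 on the linear scale (both Slc25a15 probe sets higher, Otc by 1436615_a_at and Asl lower, Ass1 not called) and 0 with differences divided by the SD, and it ran from 0 to 3 when each mouse was left out. In WAT and BAT it was 0, and without single mice 0 to 1 in WAT (Slc25a15 by 1420967_at, without CAAM mouse 5) and 0 in BAT. limma called no member in any tissue under the alternatives run except in 1 fit of all tissues, where it called 1 in liver, Ass1 (adjusted p = 0.00878), among 399 of all 45037 probe sets in liver, where the fit per tissue called 0. Member probe sets with an exact permutation p under 0.05 numbered 1 in liver and 0 there after quantile normalization. After centring they numbered 4, where 32866 of all 45037 probe sets had an unadjusted limma p under 0.05. Without single mice they numbered 0 to 3 in liver. They numbered 0 in WAT, 1 without the male tract arrays (Otc by 1436615_a_at) and from 0 to 1 without single mice, and 0 in BAT, from 0 to 2 without single mice. The 3 correlated pairs became 11 after centring and 0 of 6 pairs after quantile normalization, which gave some probe sets the same value on all arrays, left out there. Centring moves all probe sets of an array by the same offset, and the highest r after it was 0.999. Nothing about the members is therefore read from the 11 pairs. The cause of the other changes was not tested. Of the 33 differences of members, 17 of 528 values under alternatives moved by more than 1 SD. Most of these moves came from 2 settings: centring, where 8 moved and 25 did not, and quantile normalization, where 7 moved and 22 did not. The differences of Ass1 (0.99 to 2.50) and Slc25a15 by 1420966_at (0.57 to 1.64) in liver stayed positive under all alternatives run. That of Slc25a15 by 1420967_at was −0.06 after centring. Uncalled members kept their sign in liver as well, Cps1 (−1.35 to −0.18) and Otc by 1420525_a_at (−1.35 to −0.11). A kept sign therefore does not set the called genes apart. Without the muscle arrays or the male tract arrays, chosen with earlier results known, the counts by rank products and limma were 0.

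Same-numbered water and CAAM mice are different animals and their deviations correlated from −0.19 to 0.15. With the number as a replicate block, rank products called 3 members in liver and 0 in WAT and BAT, and limma 0 in each tissue, and without the block of mice the tissue differences gave 11 of 11. Under all other alternatives the tissue counts were 11 and the counts of differences between tissues 0. The scores are shrunk by a factor that is not known, and 5 against 7 mice limit what can be detected.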
